A study of Mus musculus with 31 samples.

Results

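Mouse embryoid bodies (EBs) at day 8 of differentiation were compared with EBs at day 4, to describe which genes were switched on and off in between, at the step where endoderm and muscle programmes appear. The comparison takes 13 of the 31 arrays of the series, 6 of EBs at day 8 and 7 of EBs at day 4, and all 12422 probe sets of the array that are not controls. All EBs were made from B6 mouse embryonic stem (ES) cells that had been kept on fibroblast feeder cells with leukemia inhibitory factor (LIF), freed of feeders and passaged on gelatin. They were then seeded into nonadherent dishes without LIF, where the cells aggregate, and neither group received another agent. The other arrays hold ES cells on gelatin, ES cells sorted for an Oct4-GFP reporter and EBs at day 14, with 6 arrays each. Days and array numbers follow the sample labels. Methods instead give 6 samples per time point, where 7 arrays are labelled day 4, and do not list a day 14. An EB is a pool of many cell types in changing shares, so fewer cells of a type and less RNA per cell cannot be told apart in any value below. Methods describe biological replicates, but the labels do not say which arrays came from separate cultures, so the p-values measure only the spread between these arrays. Array number limits their precision.

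In an EB, the outermost cells become primitive endoderm, which gives rise to visceral and parietal endoderm. Visceral endoderm is an absorptive and secretory epithelium that makes plasma proteins later made by the liver, takes up protein through apical receptors, and signals to the epiblast it covers. Parietal endoderm lays down a thick basement membrane. Inner cells lose the pluripotency network held by Pou5f1 (Oct4), Sox2 and Nanog, pass through a state like the primitive streak of the embryo, and give rise to mesoderm, the source of heart muscle, blood and vessels.

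The values are signal intensities on a linear scale, and changes are differences in log2 signal, day 8 minus day 4, given with the standard error of a linear model (limma) and a p-value adjusted over all probe sets. A call has an adjusted p under 0.05. A gene is represented by its brightest probe set, which gave 8251 genes, and signals of different genes are not set against each other.

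Over all probe sets, some arrays stood apart from their group. Day 4 replicates 6 and 7 correlated with each other at r = 0.992, with the other day 4 arrays at 0.947 to 0.978, and with the day 8 arrays at 0.951 to 0.987. Day 4 replicates 1 to 5 correlated among themselves at 0.987 to 0.993 and with the day 8 arrays at 0.951 to 0.969. At day 8, replicates 1, 3 and 5 correlated among themselves at 0.994 to 0.996 and replicates 2, 4 and 6 at 0.986 to 0.994, with 0.972 to 0.990 between them. Replicate 6 lay between these sets, at 0.990, 0.987 and 0.986 with replicates 1, 3 and 5 and at 0.986 and 0.990 with replicates 2 and 4. Correlation alone therefore does not place it, and this division of day 8 was made with earlier results of these data known. The 3′ to 5′ signal ratio of Gapdh, a sign of RNA length, was 2.11 to 2.61 at day 8, 2.24 to 2.34 in day 4 replicates 6 and 7, and 2.77 to 4.40 in the other day 4 arrays. The same ratio of beta-actin was 2.66 to 3.48, 3.26 to 3.31 and 2.33 to 3.40 in these sets, which overlapped, so the second control did not show that split. With the Gapdh ratio as a covariate, called the ratio fit below, 340 probe sets were higher and 256 lower, against 887 and 919 without it. This ratio was higher in day 4 replicates 1 to 5 than in every day 8 array, so the ratio fit cannot fully separate it from day. Some calls were lost there without a smaller change, and a lost call does not show that RNA length made the difference. Of the 106 called genes with values below, 48 lost the call in the ratio fit, 51 without day 8 replicates 2, 4 and 6, 14 without day 8 replicates 1, 3 and 5, 3 without day 4 replicates 6 and 7, and 93 with those 2 arrays as the sole day 4 samples. Genes that lost the call in the ratio fit or without day 8 replicates 2, 4 and 6 are named in their paragraphs, and so are the 20 genes that lost it when 1 of several single arrays was left out.

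**Figure D1:**
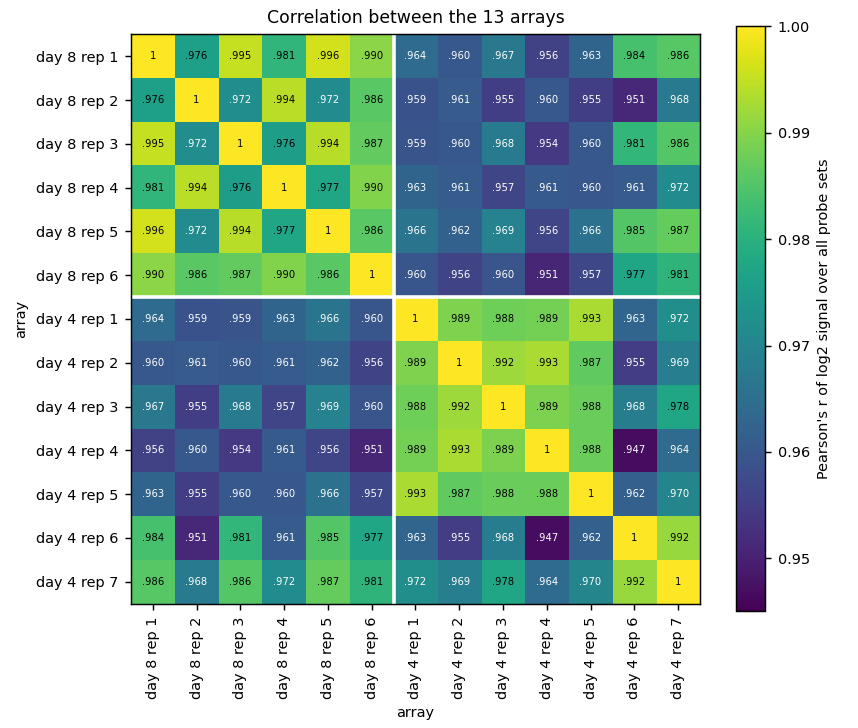
Pearson's r of log2 signal over 12422 probe sets between each pair of the 13 arrays, with the 6 day 8 arrays first and the 7 day 4 arrays after them; white lines separate the days and a brighter colour is a higher r. Day 4 replicates 6 and 7 share an r of 0.992 and lie closer to day 8 replicates 1, 3 and 5 than to the other day 4 arrays.

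At day 8, 887 of 12422 probe sets (7.14%) were higher and 919 (7.40%) lower than at day 4. A change of at least 2-fold was found in 186 probe sets that were higher (1.50%) and 59 that were lower (0.475%). By gene, 687 (8.33%) were higher and 634 (7.68%) lower, and the arrays of the days did not overlap at all for 278 of the higher genes (3.37% of all) and 202 of the lower ones (2.45% of all). Without day 4 replicates 6 and 7, 1298 genes (15.7%) were higher and 1386 (16.8%) lower. With those 2 arrays as the sole day 4 samples, 32 genes were higher and 32 lower (0.388% each). The ratio fit gave 269 higher (3.26%) and 181 lower (2.19%), and the fit without day 8 replicates 2, 4 and 6 gave 259 (3.14%) and 152 (1.84%). Counts of a list are to be read against these shares over all genes. With day 4 replicates 6 and 7 as the sole day 4 samples, a count of 0 is near the 0.388% of all genes and does not set a list apart.

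The list of proteins secreted by visceral endoderm and liver held the 2 genes with the largest increases. It also holds Fabp1, which carries fatty acids inside cells and is not secreted. Of the 34 genes of this list on the array, 19 rose (55.9%, against 8.33% of all genes), 1 fell and 14 were not called, and the median log2 change over the list was 0.51, against 0.00 over all genes. The ratio fit had 14 higher, as many as without day 8 replicates 2, 4 and 6. Rbp4, the carrier of retinol, had signals of 4153, 6769 and 8364 (lowest, median and highest array) at day 8, against 177, 195 and 777 at day 4. Its log2 change was 4.48 ± 0.38 (adjusted p = 7e-05), the largest increase of any gene whose arrays did not overlap. All 6 day 8 arrays lay far above the day 4 arrays, of which replicates 6 and 7 were the highest at 606 and 777.

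Lipoprotein genes were among the 19 as well. Apob, the scaffold protein of lipid-carrying particles, had 1489, 2854 and 5279 at day 8, against 77.4, 111 and 328 at day 4, a log2 change of 4.29 ± 0.42 (adjusted p = 0.00017). Day 8 replicates 2, 4 and 6 were at 4017 to 5279 and replicates 1, 3 and 5 at 1489 to 1691, all above day 4. Apoa1, the main protein of high-density lipoprotein, had 2585, 3931 and 4940 at day 8, against 225, 246 and 867 at day 4 (3.47 ± 0.35, adjusted p = 0.00017), with no overlap. Apom and Apoc2, which travel on such particles, rose by 2.55 ± 0.33 and 2.18 ± 0.30 (adjusted p = 0.00067 and 0.00093). A second, dim probe set of Apom did not pass. Apoa4 rose by 0.19 ± 0.05 (adjusted p = 0.033), while Apoa2 changed by -0.04 ± 0.09 and did not pass (adjusted p = 0.80). Leaving out any 1 of 7 arrays undid the call for Apoa4 (0.17 to 0.21, adjusted p up to 0.076), and so did the ratio fit (adjusted p = 0.13), leaving out day 8 replicates 2, 4 and 6 (adjusted p = 0.20) and quantile normalization or median centring (0.17 each, adjusted p = 0.070 and 0.093).

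The 19 included 3 genes of clotting. Fgb, the fibrinogen beta chain, had 551, 942 and 1388 at day 8, against 70.1, 86.4 and 140 at day 4, and rose by 3.25 ± 0.25 (adjusted p = 3.4e-05). F2, the precursor of thrombin, had 316, 482 and 790 at day 8, against 42.1, 57.4 and 115 at day 4, where 4 of 7 arrays lay under the floor of 59.6 to which low signals were raised, so that its change of 2.78 ± 0.24 (adjusted p = 7e-05) is understated. Fga, the alpha chain, had 69.6, 124 and 293 at day 8, against 32.8, 38.1 and 47.9 at day 4, where all 7 arrays were under that floor. The day 8 and day 4 arrays overlapped for none of these 3 genes. Fga passed (adjusted p = 0.035), and any 1 of 8 arrays undid its call (adjusted p up to 0.079), as did the ratio fit (adjusted p = 0.10). F10, clotting factor X, had 538, 597 and 613 at day 8, against 501, 557 and 631 at day 4, and did not pass (0.04 ± 0.06, adjusted p = 0.73), although its dimmer second probe set rose by 1.53 (adjusted p = 0.00058).

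Further secreted proteins rose. Spink1, a trypsin inhibitor, had 8623, 11574 and 13986 at day 8, against 427, 566 and 5878 at day 4 (3.54 ± 0.65, adjusted p = 0.0052). Its day 4 replicates 6 and 7, at 4478 and 5878, were several times higher than the other day 4 arrays but below every day 8 array, and its call was lost in the ratio fit (2.24, adjusted p = 0.066) and without day 8 replicates 2, 4 and 6 (3.32, adjusted p = 0.081). Ttr, a carrier of thyroid hormone, had 950, 1985 and 3025 at day 8, against 478, 509 and 616 at day 4 (1.79 ± 0.25, adjusted p = 0.0011).

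Further members of the list moved by less. Afp, the fetal counterpart of albumin, had 279, 334 and 390 at day 8, against 211, 227 and 273 at day 4, a log2 change of 0.50 ± 0.09 (adjusted p = 0.0046), and its second probe set did not pass, nor did the first without day 8 replicates 2, 4 and 6 (0.43, adjusted p = 0.054). Alb, albumin itself, changed by 0.04 ± 0.08 (adjusted p = 0.82). Serpinc1, which encodes antithrombin, was the member that fell, by 0.28 ± 0.07 (adjusted p = 0.026), with 187, 205 and 234 at day 8 and 217, 245 and 296 at day 4, and any 1 of 4 arrays undid the call (-0.32 to -0.24, adjusted p up to 0.060), as did the ratio fit (-0.18, adjusted p = 0.26) and leaving out day 8 replicates 2, 4 and 6 (adjusted p = 0.15).

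**Figure D2:**
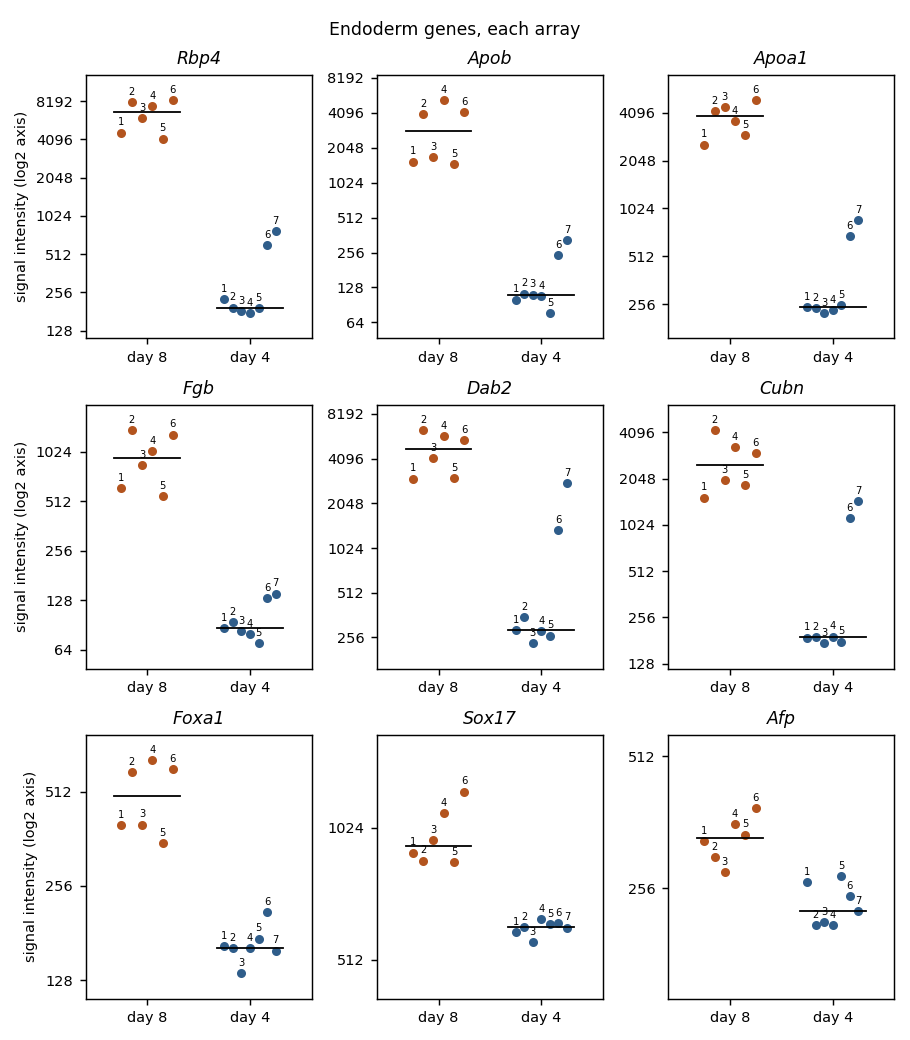
Signal intensity (log2 axis) of 9 endoderm genes in each array, day 8 left and day 4 right; points are single arrays numbered by replicate and black lines are medians. Rbp4, Apob, Apoa1, Fgb, Dab2, Cubn, Foxa1, Sox17 and Afp were higher in every day 8 array than in any day 4 array, and day 4 replicates 6 and 7 lay between the other day 4 arrays and day 8 for Rbp4, Apob, Apoa1, Dab2 and Cubn.

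Of the 19 genes of the secreted protein list that rose, Fabp1 included, 16 have a promoter window in RefSeq (mouse GRCm38.p6). It runs from 250 bases before to 50 bases after the transcription start. The letters GTTAAT, the core of the motif of hepatocyte nuclear factor 1 (HNF1), occur on either strand in 7 of these 16 windows (43.8%), those of Afp, Apoc2, F2, Fabp1, Fga, Fgb and Igfbp1, against 8.24% of the windows of all 27025 genes. AGATAA, a form of the GATA motif, occurs in 0 of the 16 and in 12.7% of all genes. The motifs were chosen after the expression values were seen, and a match is a stretch of letters, not a binding site. The windows of Fgb, Apoc2 and Igfbp1 are printed to show where the motif, in capitals, lies: 29, 89 and 56 bases before the start.
Fgb, chr3:83049814-83050113, minus strand: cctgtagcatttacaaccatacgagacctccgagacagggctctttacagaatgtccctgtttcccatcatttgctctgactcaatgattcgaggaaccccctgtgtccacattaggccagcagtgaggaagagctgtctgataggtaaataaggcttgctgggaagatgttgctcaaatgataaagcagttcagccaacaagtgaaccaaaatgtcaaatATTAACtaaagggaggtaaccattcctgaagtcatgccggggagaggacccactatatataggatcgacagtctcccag
Apoc2, chr7:19677892-19678191, minus strand: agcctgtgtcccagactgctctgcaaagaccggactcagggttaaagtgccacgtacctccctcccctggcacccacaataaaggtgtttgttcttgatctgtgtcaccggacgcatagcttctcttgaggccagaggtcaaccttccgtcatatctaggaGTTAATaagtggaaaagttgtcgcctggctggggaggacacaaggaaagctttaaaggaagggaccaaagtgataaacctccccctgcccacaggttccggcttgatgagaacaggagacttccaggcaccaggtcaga
Igfbp1, chr11:7197537-7197836, plus strand: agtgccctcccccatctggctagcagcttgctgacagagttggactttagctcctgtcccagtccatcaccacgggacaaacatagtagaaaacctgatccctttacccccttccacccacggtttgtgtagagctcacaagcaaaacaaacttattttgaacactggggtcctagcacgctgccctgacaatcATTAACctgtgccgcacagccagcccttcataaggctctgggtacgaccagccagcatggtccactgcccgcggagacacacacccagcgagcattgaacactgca
Igfbp1, a secreted protein that binds insulin-like growth factors, had 752, 1466 and 2369 at day 8, against 291, 306 and 350 at day 4, and its log2 change of 2.18 ± 0.23 (adjusted p = 0.00024) was 2.18 without day 4 replicates 6 and 7 as well. Its second probe set did not pass. Fabp1, a fatty acid carrier, rose by 0.60 ± 0.12 (adjusted p = 0.0073) and lost its call in the ratio fit (adjusted p = 0.081). With the floor at the 25th percentile of signals neither Fabp1 nor Hpx, the heme carrier hemopexin, passed (adjusted p = 0.54 and 0.23). Second probe sets of Fabp1 and Hpx changed by 0.03 and 0.21 and did not pass (adjusted p = 0.66 and 0.062).

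The uptake machinery of visceral endoderm rose in part. Of 21 measured genes for endocytosis and the apical surface, 8 rose (38.1%) and 1 fell, with a median log2 change of 0.21. The number that rose was 5 in the ratio fit, 4 without day 8 replicates 2, 4 and 6, and against day 4 replicates 6 and 7 alone 0. Dab2, an adaptor that links receptors to clathrin, had 3004, 4787 and 6363 at day 8, against 235, 289 and 2798 at day 4 (3.18 ± 0.57, adjusted p = 0.0047). Cubn, the receptor cubilin, had 1541, 2501 and 4232 at day 8, against 174, 192 and 1460 at day 4 (2.95 ± 0.57, adjusted p = 0.0065). For both genes the day 4 signal was low in replicates 1 to 5 and high in replicates 6 and 7, and with these 2 arrays as the only day 4 samples the changes were 1.18 and 0.95 and did not pass (adjusted p = 0.22 and 0.30). A second probe set of each gene did not pass, and another of Dab2 rose by 2.45. Both calls were lost in the ratio fit (2.17 and 1.92, adjusted p = 0.067 and 0.089) and without day 8 replicates 2, 4 and 6 (2.78 and 2.48, adjusted p = 0.084 and 0.10).

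Vil1, which bundles actin in microvilli, had 454, 890 and 1619 at day 8, against 60.9, 65.5 and 134 at day 4 (3.45 ± 0.31, adjusted p = 0.00011). S100g, a calcium-binding protein of absorptive cells, had 730, 1813 and 3371 at day 8, against 249, 292 and 364 at day 4 (2.53 ± 0.34, adjusted p = 0.00078). Lrp2, or megalin, the partner of cubilin at the membrane, went the other way, with 385, 435 and 471 at day 8, against 479, 552 and 687 at day 4 (-0.37 ± 0.07, adjusted p = 0.0073). The arrays of the days did not overlap for any of these 3 genes. Slc2a2, a glucose transporter of liver and absorptive epithelia, rose by 0.80 ± 0.22 (adjusted p = 0.031), a call that any 1 of 5 arrays undid (0.61 to 0.92, adjusted p up to 0.070), and its change was 0.35 without day 8 replicates 2, 4 and 6 (adjusted p = 0.080). Lrp2 did not pass in that fit (adjusted p = 0.078) or in the ratio fit (adjusted p = 0.081).

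Transcription factors of endoderm formed a list of 23 measured genes, of which 6 rose (26.1%) and 0 fell, and the median log2 change was 0.07. Of these factors, 4 rose in the ratio fit, as without day 8 replicates 2, 4 and 6, and 0 did against day 4 replicates 6 and 7 alone. Foxa1, a forkhead factor that opens chromatin at liver genes, had 351, 496 and 643 at day 8, against 135, 162 and 211 at day 4 (1.55 ± 0.16, adjusted p = 0.00017). Hhex, a homeobox factor of anterior visceral endoderm, had 780, 946 and 1098 at day 8, against 492, 557 and 658 at day 4 (0.73 ± 0.10, adjusted p = 0.00096). Sox17, a factor of endoderm formation, had 855, 929 and 1238 at day 8, against 562, 608 and 634 at day 4 (0.69 ± 0.08, adjusted p = 0.00046).

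None of these 3 factors had overlapping arrays, and their day 4 replicates 6 and 7 lay near the other day 4 arrays, at 211 and 159 for Foxa1 and at 619 and 606 for Sox17. Foxa2 and Foxa3, related forkhead factors, rose by 0.47 ± 0.08 and 0.51 ± 0.15 (adjusted p = 0.0025 and 0.043), and so did Nr2f2, a nuclear receptor, by 0.56 ± 0.16 (adjusted p = 0.032). Any 1 of 10 arrays undid the call for Foxa3 (0.41 to 0.63, adjusted p up to 0.095) and any 1 of 5 that for Nr2f2 (0.41 to 0.62, adjusted p up to 0.066). Neither passed in the ratio fit (adjusted p = 0.089 and 0.095) or without day 8 replicates 2, 4 and 6 (0.17 and 0.31, adjusted p = 0.32 and 0.12), and Foxa3 did not pass without day 4 replicates 6 and 7. A second, dim probe set of Nr2f2 changed by 0.07 and did not pass (adjusted p = 0.49). Hnf4a, a nuclear receptor that drives plasma protein genes in visceral endoderm, had 283, 342 and 369 at day 8 and 287, 311 and 369 at day 4 (0.08 ± 0.07, adjusted p = 0.51). Gata4 and Gata6, zinc finger factors of primitive endoderm, changed by -0.03 ± 0.06 and 0.27 ± 0.10 and did not pass (adjusted p = 0.82 and 0.093). Gata6 passed without day 4 replicates 6 and 7 (0.34, adjusted p = 0.033).

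Parietal endoderm and basement membrane genes numbered 21 on the array, of which 10 rose (47.6%), 0 fell and 11 were not called, with a median log2 change of 0.38. Of the 6 defining markers of parietal endoderm, 3 rose. The list had 5 higher in the ratio fit and 5 without day 8 replicates 2, 4 and 6. Col4a1, a collagen IV chain of basement membranes, had 4191, 5061 and 5446 at day 8, against 470, 589 and 2059 at day 4 (2.63 ± 0.35, adjusted p = 0.00075), with no overlap. Pth1r, the parathyroid hormone receptor that marks parietal endoderm as it forms, had 467, 720 and 940 at day 8, against 123, 155 and 343 at day 4 (1.94 ± 0.26, adjusted p = 0.0008). Sparc, a collagen-binding matrix protein, had 1786, 2043 and 2414 at day 8, against 569, 842 and 1341 at day 4 (1.17 ± 0.20, adjusted p = 0.0034). Col4a1 and Sparc were the 2 genes of this list that passed with day 4 replicates 6 and 7 as the only day 4 samples (1.49 and 0.71, adjusted p = 0.015 and 0.045), while Sparc lost its call in the ratio fit (0.95, adjusted p = 0.052) and without day 8 replicates 2, 4 and 6 (adjusted p = 0.051). Plat and Thbd, further markers of these cells, changed by 0.16 ± 0.10 and -0.52 ± 0.41 and did not pass (adjusted p = 0.30 and 0.45).

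Of 23 keratins and junction proteins of simple epithelia, 9 rose (39.1%) and 2 fell. Krt19, a keratin of simple epithelia, had 2053, 2568 and 3915 at day 8, against 196, 293 and 1313 at day 4 (2.73 ± 0.47, adjusted p = 0.0037). Krt8 and Krt18, further keratins of simple epithelia, rose by 1.14 ± 0.22 and 1.58 ± 0.32 (adjusted p = 0.0058 and 0.0084). Krt18 overlapped between the days because day 4 replicate 6 was at 4435 and the lowest day 8 array at 4392. A second, dim probe set of Krt18 did not pass. Cldn6, a tight junction protein, had 1522, 1988 and 2937 at day 8, against 276, 379 and 1313 at day 4 (2.04 ± 0.38, adjusted p = 0.0054). With day 4 replicates 6 and 7 as the only day 4 samples, 0 genes of this list passed in either direction, against 0.388% of all genes each way. In the ratio fit 3 rose, and without day 8 replicates 2, 4 and 6 it was 2. Krt8, Krt18 and Cldn6 lost their calls in both of the last 2 fits (adjusted p of 0.067 to 0.12), and Krt19 in the second (2.46, adjusted p = 0.068).

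Of 14 measured trophoblast genes, 7 rose (50%) and 0 fell, against 2 that rose in the ratio fit, 2 without day 8 replicates 2, 4 and 6, and 0 against day 4 replicates 6 and 7 alone. Rhox5, a homeobox gene of the X chromosome that visceral endoderm also expresses, had 6594, 8858 and 10390 at day 8, against 2092, 3503 and 6758 at day 4 (1.29 ± 0.29, adjusted p = 0.013). Tpbpa, a defining trophoblast marker, rose by 0.94 ± 0.21 (adjusted p = 0.011). Neither passed in the ratio fit (0.60 and 0.93, adjusted p = 0.13 and 0.079), and Rhox5 did not pass without day 8 replicates 2, 4 and 6 (adjusted p = 0.054). Of the defining trophoblast markers only 2 are measured, Tpbpa, which rose, and Cdx2, which did not pass. Their summed signal was 788 to 1947 at day 8 and 580 to 759 at day 4.

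Of 38 measured genes of the cardiac sarcomere and calcium handling, 12 rose (31.6%) and 2 fell, with a median log2 change of 0.13, and of 9 defining heart markers, 7 rose and 0 fell, with a median of 1.31. Tnnt2, the troponin T of heart muscle, had 204, 615 and 1024 at day 8, against 102, 107 and 118 at day 4 (2.28 ± 0.34, adjusted p = 0.0016). Every day 4 array was near the lowest level, replicates 6 and 7 included at 110 and 103, so that the change was 2.27 without those arrays and 2.30 with them as the sole day 4 samples, where it did not pass (adjusted p = 0.16).

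Day 8 arrays differed in heart genes. Tnnt2 was at 858 to 1024 in day 8 replicates 2, 4 and 6 and at 204 to 372 in replicates 1, 3 and 5. Without replicates 2, 4 and 6 its change was 1.45 (adjusted p = 0.0012), and without replicates 1, 3 and 5 it was 3.10 (adjusted p = 3e-08). Over all genes, 641 (7.77%) were higher and 421 (5.10%) lower in the second of these fits. Of the 38 cardiac genes, 6 rose and 0 fell in the first fit, 12 rose and 1 fell in the second, 6 rose and 0 fell in the ratio fit, and 0 passed against day 4 replicates 6 and 7 alone.

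Light chains and actin followed the same order of arrays. Myl7, the myosin light chain of the atrium, had 501, 797 and 1157 at day 8, against 259, 280 and 296 at day 4 (1.47 ± 0.17, adjusted p = 0.00042). Myl4, a light chain of the embryonic atrium, had 651, 1014 and 1490 at day 8, against 262, 298 and 419 at day 4 (1.68 ± 0.20, adjusted p = 0.00038). Actc1, cardiac alpha actin, had 1132, 1800 and 2526 at day 8, against 481, 657 and 1046 at day 4 (1.31 ± 0.24, adjusted p = 0.0046), and a second probe set rose by 3.44. In all 3 genes the arrays of the days did not overlap, and the highest day 8 array was replicate 2. Actc1 changed by 1.07 in the ratio fit (adjusted p = 0.064), by 0.92 without day 8 replicates 2, 4 and 6 (adjusted p = 0.078) and by 0.77 against day 4 replicates 6 and 7 alone (adjusted p = 0.30), and passed in none of these. Actins are close relatives, so probe sets of one may also bind transcripts of another.

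Tnnc1, the troponin C of heart and slow muscle, had 469, 751 and 885 at day 8, against 159, 175 and 268 at day 4 (1.88 ± 0.18, adjusted p = 0.00013). Myosin heavy chains form the thick filament. Myh6, the alpha heavy chain, had 254, 352 and 618 at day 8, against 181, 247 and 258 at day 4 (0.70 ± 0.20, adjusted p = 0.036), and did not pass without day 4 replicates 6 and 7 (0.57, adjusted p = 0.069) or without any 1 of 9 arrays (0.55 to 0.81, adjusted p up to 0.078), and without day 8 replicates 2, 4 and 6 its change was 0.29 (adjusted p = 0.24). Myh7, the beta heavy chain, rose by 0.44 ± 0.06 (adjusted p = 0.0013), and its dimmer second probe set by 1.60 (adjusted p = 0.0019), with medians of 758 at day 8 and 227 at day 4. Nppa, a peptide hormone of the atrium, changed by 0.07 ± 0.09 (adjusted p = 0.69). The members that fell were Mb, or myoglobin (-0.28 ± 0.06, adjusted p = 0.011), and Casq2, a calcium store protein (-0.24 ± 0.06, adjusted p = 0.019). Neither passed in the ratio fit (adjusted p = 0.094 and 0.11) or without day 8 replicates 2, 4 and 6 (adjusted p = 0.054 and 0.17), and Mb, a dim gene, had a change of 0.00 with the floor at the 25th percentile of signals. A second probe set of Mb changed by 0.04 and did not pass (adjusted p = 0.48).

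Of the 12 cardiac genes that rose, all have a promoter window, and the CArG box, the motif of serum response factor, occurs in 5 (41.7%), those of Actc1, Fhl2, Myl3, Myl7 and Myom1, against 1.81% of the windows of all genes. Fhl2, Myl3 and Myom1, a LIM domain protein, a light chain and a protein of the sarcomere's M band, rose by 0.26 ± 0.07, 0.95 ± 0.28 and 0.76 ± 0.21 (adjusted p = 0.028, 0.040 and 0.032), and leaving out any 1 of 7, 9 and 7 arrays undid their calls (adjusted p up to 0.064, 0.087 and 0.070). In the ratio fit their changes were 0.31, 0.40 and 0.97 and did not pass (adjusted p = 0.072, 0.44 and 0.061), and Fhl2 and Myl3 did not pass without day 8 replicates 2, 4 and 6 (adjusted p = 0.27 and 0.30). The box occurs in 1 of the 16 secreted protein windows (6.25%, Hpx), while GTTAAT occurs in 1 of the 12 cardiac windows (8.33%) and AGATAA in 3 of them (25%). The windows of Actc1 and Myl7, whose levels are given above, are printed with the box in capitals, 47 and 61 bases before the start.
Actc1, chr2:114052826-114053125, minus strand: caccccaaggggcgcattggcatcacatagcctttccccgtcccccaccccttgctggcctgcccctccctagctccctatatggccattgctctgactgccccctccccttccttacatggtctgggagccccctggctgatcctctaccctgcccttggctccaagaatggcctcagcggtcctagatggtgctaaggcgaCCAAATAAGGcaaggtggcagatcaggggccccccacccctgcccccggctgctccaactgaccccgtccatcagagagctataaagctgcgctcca
Myl7, chr11:5898733-5899032, minus strand: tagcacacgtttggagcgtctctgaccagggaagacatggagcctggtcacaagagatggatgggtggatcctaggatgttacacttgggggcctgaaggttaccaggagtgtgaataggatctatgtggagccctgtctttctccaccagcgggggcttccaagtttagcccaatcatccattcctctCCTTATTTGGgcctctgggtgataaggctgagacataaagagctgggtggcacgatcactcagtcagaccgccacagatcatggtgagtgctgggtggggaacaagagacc
Each printed window has 300 bases.

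Among 29 measured transcription factors of heart and mesoderm, 5 rose (17.2%) and 0 fell, with a median log2 change of 0.14, and 2 rose in the ratio fit and 1 without day 8 replicates 2, 4 and 6. Isl1, a homeobox factor of heart progenitors, had 150, 201 and 298 at day 8, against 98.5, 104 and 136 at day 4 (0.95 ± 0.15, adjusted p = 0.0024), with no overlap. Msx2, a homeobox factor of BMP-responsive mesoderm, and Hey1, a target of Notch, rose by 0.74 ± 0.15 and 0.51 ± 0.10 (adjusted p = 0.0073 and 0.0084), but did not pass in the ratio fit (adjusted p = 0.075 and 0.10) or without day 8 replicates 2, 4 and 6 (adjusted p = 0.056 and 0.12). With the floor at the 25th percentile, a signal of 223, the changes of Isl1 and Msx2 were 0.12 and 0.14 and did not pass (adjusted p = 0.32 each). Nkx2-5 and Mef2c, central factors of heart muscle, changed by 0.17 ± 0.11 and -0.01 ± 0.08 and did not pass (adjusted p = 0.32 and 0.98). A dim probe set of Mef2c rose by 1.00 (adjusted p = 0.047), with medians of 120 at day 8 and 60.7 at day 4. Its remaining probe sets changed by 0.25 and 0.11 and did not pass (adjusted p = 0.13 and 0.40).

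Smooth muscle genes moved in both directions, 4 of 22 up (18.2%) and 3 down (13.6%), with a median of 0.02, and in the ratio fit 2 rose and 1 fell. Acta2, smooth muscle alpha actin, had 1824, 3668 and 5199 at day 8, against 935, 1390 and 3960 at day 4 (1.15 ± 0.33, adjusted p = 0.037). The days overlapped through day 4 replicate 2, and the change did not pass without day 4 replicates 6 and 7 (0.89, adjusted p = 0.070) or without any 1 of 10 arrays (1.03 to 1.38, adjusted p up to 0.083), and was 0.73 without day 8 replicates 2, 4 and 6 (adjusted p = 0.31). Tagln, an actin-binding protein of smooth muscle, had 802, 888 and 981 at day 8, against 1316, 1504 and 2643 at day 4 (-0.87 ± 0.14, adjusted p = 0.0023), with no overlap. Tagln also fell with replicates 6 and 7 as the only day 4 samples (-0.81, adjusted p = 0.025), and changed by -0.76 without day 8 replicates 2, 4 and 6 (adjusted p = 0.053). Cnn1 and Myh11, of the mature contractile apparatus, changed by -0.10 ± 0.06 and -0.14 ± 0.08 and did not pass (adjusted p = 0.31 and 0.27).

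Of 21 skeletal muscle genes, 0 rose and 1 fell. Mylpf, a light chain of fast skeletal muscle, had 470, 611 and 669 at day 8, against 814, 1228 and 1793 at day 4, and fell by 1.00 ± 0.17 (adjusted p = 0.0035), a call lost without day 8 replicates 2, 4 and 6 (-0.91, adjusted p = 0.054). The myogenic factors Myod1 and Myog changed by 0.00 ± 0.06 and -0.12 ± 0.04 and did not pass (adjusted p = 1.0 and 0.086), and Myf5 was under the floor in all 13 arrays.

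**Figure D3:**
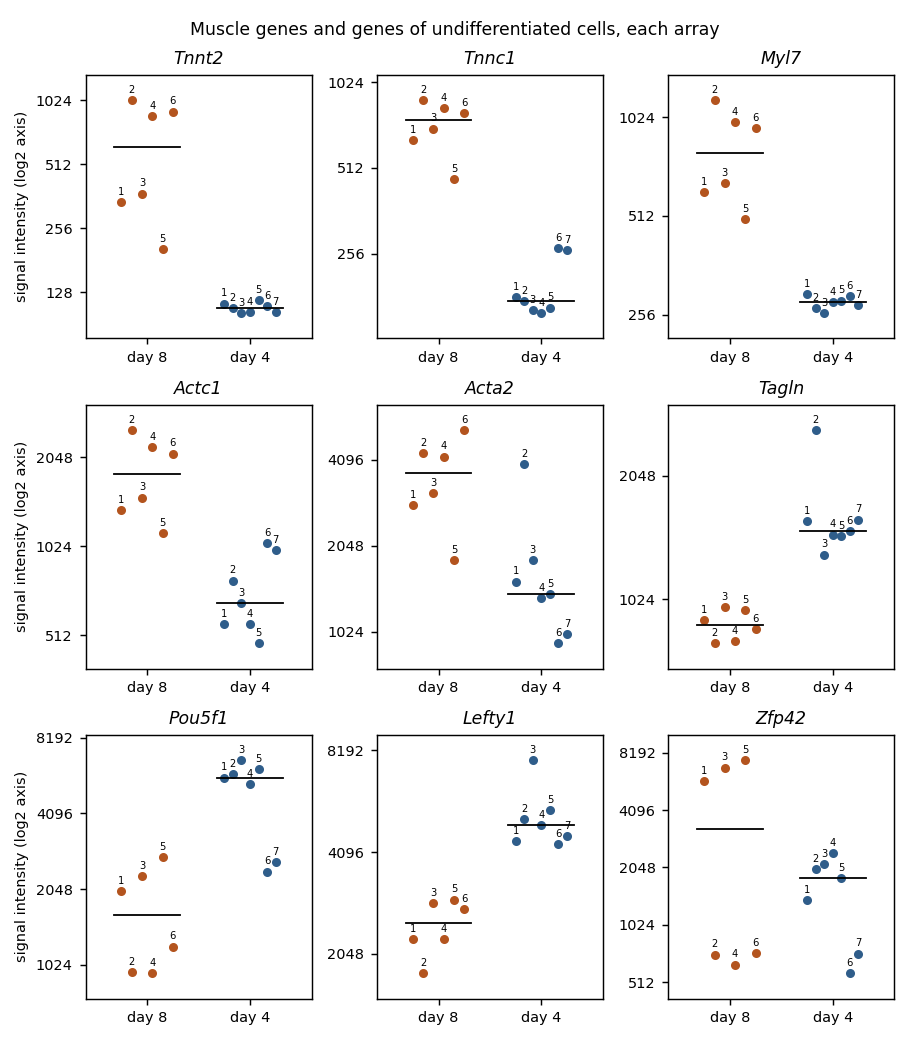
Signal intensity (log2 axis) of 6 muscle genes and of Pou5f1, Lefty1 and Zfp42 in each array, day 8 left and day 4 right; points are single arrays numbered by replicate and black lines are medians. Tnnt2, Tnnc1, Myl7 and Actc1 were higher in every day 8 array, Tagln and Lefty1 were lower in every day 8 array, and Zfp42 ran from 635 to 7451 within day 8.

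Embryonic globins rose. Hba-x, the zeta globin of primitive red cells, had 271, 1602 and 4801 at day 8, against 172, 207 and 233 at day 4 (2.71 ± 0.52, adjusted p = 0.0059). Hbb-y, the epsilon globin, had 665, 3363 and 8498 at day 8, against 460, 523 and 651 at day 4 (2.26 ± 0.49, adjusted p = 0.01). The lowest day 8 array of both was replicate 5 and the highest replicate 2, and no day 8 array overlapped with day 4. Without day 8 replicates 2, 4 and 6 the changes were 1.70 and 1.19, and Hbb-y did not pass (adjusted p = 0.049 and 0.068). Globins are a family of close copies, so a probe set may bind more than its own transcript. Of 28 measured erythroid and hematopoietic genes, 5 rose (17.9%) and 1 fell, and in the ratio fit 2 rose, where Hbb-y was at the edge of the threshold and did not pass (2.51, adjusted p = 0.050).

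Of 28 endothelial genes, 9 rose (32.1%) and 0 fell. This count was 4 in the ratio fit, 3 without day 8 replicates 2, 4 and 6, and 0 against day 4 replicates 6 and 7 alone. Cdh5, the cadherin of endothelial junctions, had 314, 519 and 1566 at day 8, against 143, 172 and 254 at day 4 (1.65 ± 0.35, adjusted p = 0.0092). Cldn5, a tight junction protein of vessels, had 260, 373 and 563 at day 8, against 193, 202 and 237 at day 4 (0.85 ± 0.15, adjusted p = 0.0042). Kdr, the main receptor of vascular endothelial growth factor and a marker of early mesoderm, rose by 0.49 ± 0.13 (adjusted p = 0.028), a call that any 1 of 7 arrays undid (0.40 to 0.57, adjusted p up to 0.058), and its change was 0.23 without day 8 replicates 2, 4 and 6 (adjusted p = 0.17). Angpt2, a ligand of vessel remodelling, had 1167 to 1394 in day 8 replicates 1, 3 and 5, 473 to 506 in replicates 2, 4 and 6, and 331 to 402 at day 4 (1.11 ± 0.28, adjusted p = 0.021), the reverse of the order that Tnnt2 and Cdh5 showed within day 8. In the ratio fit Cdh5 changed by 1.66 (adjusted p = 0.067) and Angpt2 by 0.90 (adjusted p = 0.17), and neither passed.

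Fibroblast and mesenchymal matrix genes split, with 6 of 43 higher and 6 lower (14% each). In the ratio fit 4 were higher and 0 lower, without day 8 replicates 2, 4 and 6 it was 3 and 0, and against day 4 replicates 6 and 7 alone 0 passed. Postn, a matrix protein of embryonic mesenchyme, had 240, 800 and 2569 at day 8, against 108, 137 and 324 at day 4 (2.20 ± 0.51, adjusted p = 0.015). Col3a1, a fibrillar collagen, had 550, 1723 and 3493 at day 8, against 333, 360 and 568 at day 4 (1.94 ± 0.40, adjusted p = 0.0086), where 1 of its 2 dimmer probe sets rose by 2.01 and the other did not pass. Lum, a proteoglycan that organises collagen, had 276, 1027 and 3036 at day 8, against 209, 241 and 273 at day 4 (1.82 ± 0.54, adjusted p = 0.04), and any 1 of 9 arrays undid its call (1.46 to 2.15, adjusted p up to 0.089), as did the ratio fit (adjusted p = 0.10). Without day 8 replicates 2, 4 and 6, Postn and Lum changed by 1.13 and 0.51 and did not pass (adjusted p = 0.10 and 0.098), and Postn did not pass with the floor at the 25th percentile either (adjusted p = 0.060). These 3 genes were highest in day 8 replicates 2, 4 and 6, the arrays with the highest Tnnt2, and of the 7 fibroblast markers 4 rose and 1 fell, with a summed signal of 3018 to 14852 at day 8 and 2546 to 4372 at day 4.

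Mmp3, Lox and Mfap5 were among the 6 that fell. Mmp3, a matrix-degrading protease, had 99.8, 114 and 151 at day 8, against 141, 925 and 1839 at day 4 (-2.43 ± 0.58, adjusted p = 0.017), where replicates 6 and 7 were at 162 and 141. Without replicates 6 and 7 it fell by 3.27 (adjusted p = 3.2e-06), and with them as the only day 4 samples it changed by -0.34 and did not pass (adjusted p = 0.41). Lox, which crosslinks collagen, had 83.9, 141 and 335 at day 8, against 224, 420 and 1677 at day 4 (-1.61 ± 0.44, adjusted p = 0.03), and any 1 of 7 arrays undid its call (-1.84 to -1.31, adjusted p up to 0.070), and its second probe set did not pass. Mfap5, a protein of elastic microfibrils, had 116, 155 and 214 at day 8, against 219, 516 and 1008 at day 4 (-1.59 ± 0.33, adjusted p = 0.009), and its second probe set did not pass. The ratio fit gave -1.34, -1.08 and -1.04 for the 3 genes and the fit without day 8 replicates 2, 4 and 6 gave -2.39, -1.19 and -1.28, and none passed in either (adjusted p of 0.12 to 0.27). EBs were seeded from feeder-depleted cells, and the part of residual feeders in these values was not tested.

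The genes of undifferentiated cells did not fall as a block. Of 45 measured pluripotency genes, 11 fell (24.4%, against 7.68% of all genes) and 3 rose (6.67%, against 8.33%). The other 31 were not called, and the median log2 change of the list was -0.18. Without day 4 replicates 6 and 7, 20 fell and 4 rose, and against those 2 arrays alone 0 fell and 1 rose. Without day 8 replicates 2, 4 and 6, 2 fell and 5 rose, against 1.84% and 3.14% of all genes. The balance of calls turned there, while the list median was -0.05. In the ratio fit 3 fell and 3 rose, against 2.19% and 3.26% of all genes. Pou5f1, the core factor Oct4, had 949, 1613 and 2747 at day 8, against 2407, 5688 and 6651 at day 4 (-1.57 ± 0.34, adjusted p = 0.01). Day 4 replicates 6 and 7, at 2407 and 2617, lay within the range of day 8, and with them as the only day 4 samples the change was -0.69 and did not pass (adjusted p = 0.53). Pou5f1 changed by -1.26 in the ratio fit (adjusted p = 0.12) and by -0.98 without day 8 replicates 2, 4 and 6 (adjusted p = 0.14). A second, dimmer probe set of it did not pass.

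Lefty1, an inhibitor of Nodal, had 1796, 2521 and 2962 at day 8, against 4312, 4908 and 7635 at day 4 (-1.06 ± 0.15, adjusted p = 0.0011), with no overlap and with replicates 6 and 7 near the others. Tdgf1, the Nodal co-receptor Cripto, had 1429, 3006 and 4027 at day 8, against 4073, 5929 and 6486 at day 4 (-1.03 ± 0.24, adjusted p = 0.015). Nodal itself fell by 0.63 ± 0.14 (adjusted p = 0.014). All 3 genes act in 1 signalling pathway, and 0 of the 3 passed with day 4 replicates 6 and 7 as the only day 4 samples. Tdgf1 and Nodal did not pass in the ratio fit (adjusted p = 0.10 and 0.14) or without day 8 replicates 2, 4 and 6 (-0.52 each, adjusted p = 0.083 and 0.13).

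Nanog had 4571, 5987 and 8087 at day 8, against 3969, 5373 and 6653 at day 4 (0.16 ± 0.16, adjusted p = 0.54). Sox2 changed by -0.46 ± 0.16 (adjusted p = 0.081), and fell without day 4 replicates 6 and 7 (-0.62, adjusted p = 0.0048). Zfp42 (Rex1), a marker of naive ES cells, had 5825 to 7451 in day 8 replicates 1, 3 and 5 and 635 to 730 in replicates 2, 4 and 6, against 572, 1805 and 2426 at day 4, so that its change of 0.62 ± 0.71 did not pass (adjusted p = 0.62). Lifr, the receptor subunit for LIF, had 813, 921 and 1637 at day 8, against 342, 508 and 583 at day 4 (1.08 ± 0.17, adjusted p = 0.0023). Of its 4 dimmer probe sets, 2 rose by 0.26 and 0.33, and the others changed by 0.01 and -0.40 and did not pass. Kit, a stem cell factor receptor, rose by 0.84 ± 0.16 (adjusted p = 0.0058).

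Of 35 genes of the primitive streak, epiblast and early mesoderm, 8 rose (22.9%) and 2 fell, against 6 and 0 both in the ratio fit and without day 8 replicates 2, 4 and 6. By the brightest probe set of each gene, the largest increases were in secreted inhibitors. Cer1, an inhibitor of Nodal and BMP made by anterior visceral endoderm, had 335, 496 and 820 at day 8, against 145, 163 and 313 at day 4 (1.52 ± 0.24, adjusted p = 0.0022). Dkk1, an inhibitor of WNT, had 240, 333 and 440 at day 8, against 106, 120 and 152 at day 4 (1.46 ± 0.14, adjusted p = 0.00013). Sfrp1, a WNT-binding protein, had 252, 748 and 1364 at day 8, against 207, 220 and 256 at day 4 (1.50 ± 0.41, adjusted p = 0.03), and like Angpt2 it was highest in day 8 replicates 1, 3 and 5, at 1147 to 1364. Any 1 of 7 arrays undid its call (1.27 to 1.76, adjusted p up to 0.060), as did the ratio fit (1.22, adjusted p = 0.20).

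Eomes, a T-box factor of the streak and of endoderm, had 934, 1060 and 1197 at day 8, against 685, 790 and 933 at day 4 (0.40 ± 0.09, adjusted p = 0.01), and its dimmer second probe set rose by 1.58. Lhx1, a homeobox factor of the same region, rose by 0.48 ± 0.09 (adjusted p = 0.0056). Wnt8a, a ligand of the streak, had 370, 381 and 396 at day 8, against 416, 522 and 588 at day 4 (-0.40 ± 0.07, adjusted p = 0.0039). Lhx1 and Wnt8a did not pass in the ratio fit (adjusted p = 0.078 and 0.055), and Eomes and Wnt8a did not without day 8 replicates 2, 4 and 6 (0.26 and -0.38, adjusted p = 0.15 and 0.062). Gsc and Fgf5, of the organiser and the epiblast, changed by -0.16 ± 0.12 and -0.04 ± 0.08 and did not pass (adjusted p = 0.42 and 0.82).

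Of 20 imprinted genes, which are read from a single parental copy, 8 rose (40%) and 0 fell, with a median of 0.32, and 6 rose in the ratio fit. Igf2, a growth factor made by mesoderm and extraembryonic tissue, had 11235, 15640 and 20321 at day 8, against 1640, 1966 and 4621 at day 4 (2.68 ± 0.28, adjusted p = 0.00022). It also passed with replicates 6 and 7 as the only day 4 samples (1.76, adjusted p = 0.041), while a second, dim probe set did not pass. Meg3, a maternally expressed noncoding RNA, and Dlk1, the paternally expressed gene of the same cluster, rose by 2.14 ± 0.33 and 1.16 ± 0.29 (adjusted p = 0.0021 and 0.02). Dlk1 did not pass in the ratio fit (1.35, adjusted p = 0.064), and a dimmer probe set of Meg3 changed by 0.51 and did not pass (adjusted p = 0.057). Meg3 was at 1572 to 3035 in day 8 replicates 1, 3 and 5 and 835 to 993 in replicates 2, 4 and 6, whereas Dlk1 was at 747 to 856 and 2072 to 2476 in the same arrays, the opposite order.

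Gpc3, a glypican that restrains embryonic growth, had 7055, 9196 and 11366 at day 8, against 743, 1115 and 2478 at day 4 (2.88 ± 0.29, adjusted p = 0.00017). Cyp26a1, which degrades retinoic acid, had 2646, 2971 and 3532 at day 8, against 273, 302 and 1217 at day 4 (2.78 ± 0.39, adjusted p = 0.0011). Both also passed with replicates 6 and 7 as the only day 4 samples (adjusted p = 0.023 and 0.015). Of 19 genes of retinoic acid binding and metabolism, 5 rose (26.3%) and 1 fell. Srgn, a proteoglycan of secretory granules, had 4178, 4318 and 4441 at day 8, against 101, 152 and 2813 at day 4 (3.88 ± 0.78, adjusted p = 0.0079), where replicates 6 and 7 were at 1673 and 2813, and with them as the only day 4 samples its change was 1.00 and did not pass (adjusted p = 0.057). Nor did it pass in the ratio fit (2.11, adjusted p = 0.085) or without day 8 replicates 2, 4 and 6 (3.87, adjusted p = 0.087).

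Of 42 genes of BMP and TGF beta signalling, 9 rose (21.4%), 2 fell and 31 were not called, with a median log2 change of 0.07, and 7 rose in the ratio fit and 3 without day 8 replicates 2, 4 and 6. Id1, an early BMP target that holds back differentiation factors, had 2276, 3207 and 3907 at day 8, against 1156, 1215 and 1512 at day 4 (1.26 ± 0.11, adjusted p = 9.8e-05), with no overlap. Smad1, which carries the BMP signal to the nucleus, had 1806, 2536 and 3685 at day 8, against 814, 1313 and 1650 at day 4 (1.05 ± 0.21, adjusted p = 0.0069), and did not pass without day 8 replicates 2, 4 and 6 (0.68, adjusted p = 0.093). FGF signalling had 0 of 19 genes in either direction, and 3 higher and 2 lower without day 4 replicates 6 and 7. WNT signalling had 5 of 35 up (14.3%) and 1 down, and 3 of the risers, Dkk1, Sfrp1 and Frzb, encode secreted WNT inhibitors.

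Of 36 ribosome biogenesis genes, 19 fell (52.8%, against 7.68% of all genes), 0 rose and 17 were not called, and their median log2 change was -0.40. The ratio fit had 3 of the 36 lower, against 2.19% of all genes. Nolc1, a nucleolar chaperone, had 1825, 2056 and 2863 at day 8, against 2623, 3595 and 4257 at day 4 (-0.73 ± 0.12, adjusted p = 0.0029). Nop56, a core protein that guides ribosomal RNA methylation, had 3060, 3976 and 4538 at day 8, against 3641, 6665 and 7709 at day 4 (-0.60 ± 0.18, adjusted p = 0.042), and any 1 of 10 arrays undid its call (-0.71 to -0.53, adjusted p up to 0.086), as did the ratio fit (-0.32, adjusted p = 0.39). Day 4 replicates 6 and 7 had 4261 and 3641 for Nop56, inside the day 8 range, and with them as the sole day 4 samples 0 of the 36 genes passed. Without day 8 replicates 2, 4 and 6, 1 of the 36 fell, and neither Nolc1 nor Nop56 passed (adjusted p = 0.055 and 0.26).

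Of 36 replication genes 10 fell (27.8%) and 0 rose, and of 32 mitosis genes 6 fell (18.8%) and 0 rose. Without day 4 replicates 6 and 7, 17 replication and 15 mitosis genes fell and 4 of each list rose, and against those 2 arrays alone 1 and 0 fell. In the ratio fit 4 and 3 fell, and without day 8 replicates 2, 4 and 6 it was 2 and 3. Mcm2, a subunit of the replicative helicase, had 1241, 1281 and 1433 at day 8, against 1786, 2241 and 3166 at day 4 (-0.80 ± 0.10, adjusted p = 0.00062), and passed against replicates 6 and 7 alone as well (-0.59, adjusted p = 0.045). Cdc25c, a phosphatase that starts mitosis, had 879, 963 and 1206 at day 8, against 1312, 1962 and 2344 at day 4 (-0.91 ± 0.14, adjusted p = 0.0015). Its second probe set, with medians of 908 at day 8 and 842 at day 4, changed by 0.01 and did not pass (adjusted p = 0.99). Of 26 cell cycle inhibitors and G1 cyclins, 4 rose (15.4%) and 0 fell, against 6 and 5 without day 4 replicates 6 and 7. Cdkn1a, the inhibitor p21, had 4020, 4433 and 5061 at day 8, against 1426, 1938 and 3832 at day 4 (0.99 ± 0.23, adjusted p = 0.014), and its second probe set did not pass. The first did not pass in the ratio fit (0.60, adjusted p = 0.18) or without day 8 replicates 2, 4 and 6 (0.91, adjusted p = 0.14).

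Of 43 stress genes, 11 fell (25.6%) and 3 rose, and in the ratio fit 7 fell and 1 rose. Nqo1, a detoxifying enzyme under the oxidative stress factor NRF2, had 109, 117 and 142 at day 8, against 161, 527 and 775 at day 4 (-1.85 ± 0.33, adjusted p = 0.0041). Gclm and Txnrd1, which maintain glutathione and thioredoxin, fell by 0.91 ± 0.13 and 0.93 ± 0.16 (adjusted p = 0.0011 and 0.0031). Nqo1 did not pass in the ratio fit (-1.21, adjusted p = 0.053) or without day 8 replicates 2, 4 and 6 (-1.91, adjusted p = 0.052). Among single genes outside the lists, Knop1, a nucleolar protein, had 313, 653 and 1196 at day 8, against 1203, 2501 and 2706 at day 4 (-1.88 ± 0.38, adjusted p = 0.0076; ratio fit -1.28, adjusted p = 0.10). Slc27a2, a fatty acid transporter, had 290, 363 and 377 at day 8, against 647, 1210 and 1479 at day 4 (-1.66 ± 0.17, adjusted p = 0.00022). Slc27a2 and Ctbp2, a corepressor that fell by 1.28 ± 0.20 (adjusted p = 0.0019), also passed with replicates 6 and 7 as the only day 4 samples (adjusted p = 0.032 and 0.045).

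Of 31 glycolysis and hypoxia genes, 11 rose (35.5%) and 0 fell, with a median of 0.45. The ratio fit had 3 higher, and without day 8 replicates 2, 4 and 6 it was 1, while day 4 replicates 6 and 7 had day 8 levels of several of them. P4ha1, a collagen hydroxylase induced by low oxygen, had 2952, 3235 and 3596 at day 8, against 400, 495 and 3035 at day 4 (2.10 ± 0.49, adjusted p = 0.016), and replicates 6 and 7 were at 2397 and 3035. Tpi1, a glycolytic enzyme, had 11290, 11569 and 12174 at day 8, against 5074, 5330 and 12410 at day 4 (0.74 ± 0.23, adjusted p = 0.048; without 1 array 0.66 to 0.88, adjusted p up to 0.095), and replicates 6 and 7 were at 12065 and 12410. With those 2 arrays as the only day 4 samples the changes were 0.28 and -0.07 and did not pass (adjusted p = 0.30 and 0.54), and 1 of the 31 genes passed, against 22 without them. That gene was Car2, a carbonic anhydrase (1.74, adjusted p = 0.038), whose change with all arrays was 0.97 ± 0.26 (adjusted p = 0.029) and lost its call without any 1 of 6 arrays (adjusted p up to 0.065). P4ha1 and Tpi1 did not pass in the ratio fit (0.94 and 0.20, adjusted p = 0.17 and 0.55), and P4ha1, Tpi1 and Car2 did not without day 8 replicates 2, 4 and 6 (adjusted p of 0.12 to 0.24).

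**Figure D4:**
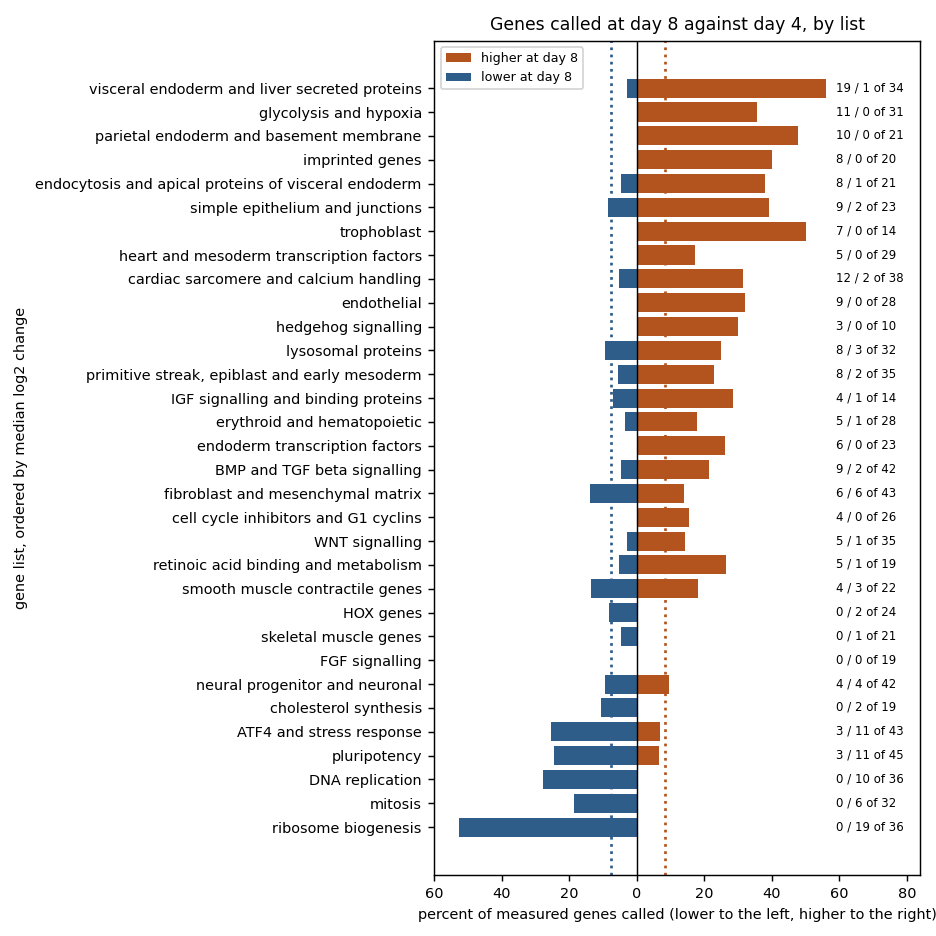
Percent of the measured genes of each list that were higher at day 8 (bars to the right) or lower (bars to the left), with the counts of higher and lower genes beside each bar; lists are ordered by median log2 change and dotted lines mark the share over all genes (8.33% higher, 7.68% lower). The list of visceral endoderm and liver secreted proteins had 19 of 34 genes higher and ribosome biogenesis 19 of 36 lower.

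Leaving out the day 4 arrays that stand apart sorted the genes in a further way. The changes of Tnnt2, Myl7, Igfbp1 and Tagln were 2.27, 1.48, 2.18 and -0.89 without replicates 6 and 7, and 2.30, 1.45, 2.17 and -0.81 without replicates 1 to 5. Those of Srgn, Dab2, Cubn and P4ha1 were 5.03, 3.98, 3.75 and 2.83 in the first of these fits and 1.00, 1.18, 0.95 and 0.28 in the second. Of the 34 secreted protein genes, 22 rose without replicates 6 and 7 and 3 (Rbp4, Apoa1 and Fgb) rose with them as the only day 4 samples, where 0.388% of all genes did. A set of 2 day 4 arrays has less power than 5, so these counts are not a measure of the size of the changes. The genes that lost their call without day 8 replicates 1, 3 and 5 were Apoa4, Car2, Cdkn1a, Mb, Mmp3, Myl3, Nop56, P4ha1, Rhox5, Serpinc1, Sox3, Srgn, Stmn1 and Tpi1 (adjusted p of 0.055 to 0.18).

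**Figure D5:**
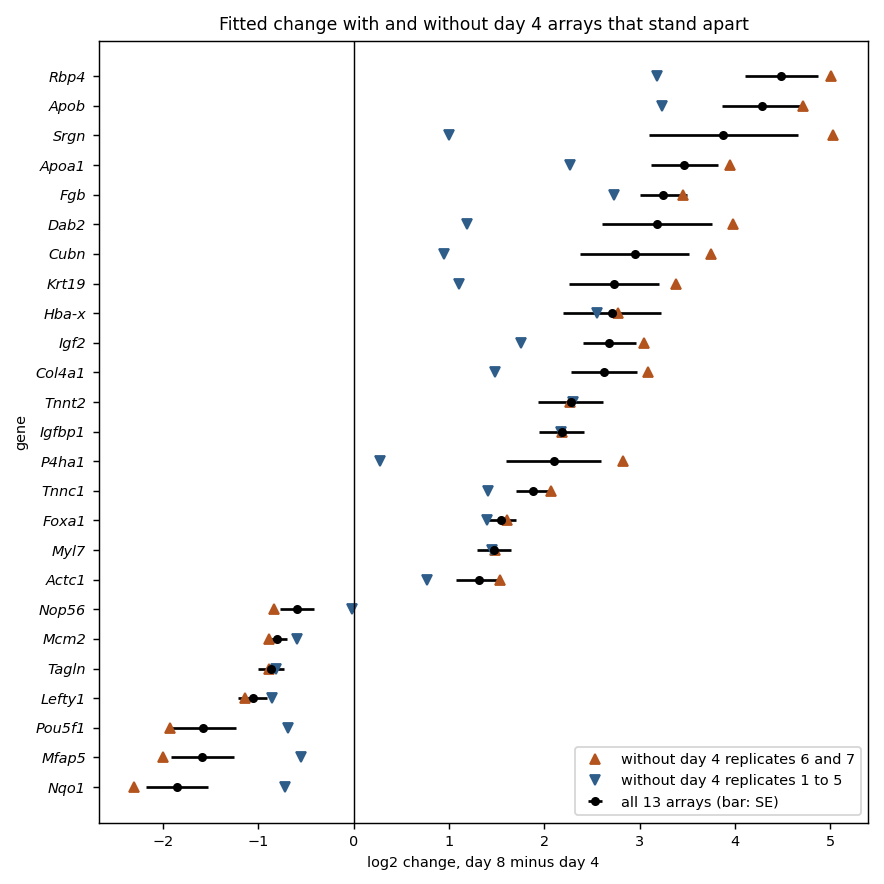
Fitted log2 change, day 8 minus day 4, of 25 genes in 3 fits: with all 13 arrays (black circles, bars are SE), without day 4 replicates 6 and 7 (upward triangles) and without day 4 replicates 1 to 5 (downward triangles). Tnnt2, Myl7 and Igfbp1 had nearly the same change in each, whereas Srgn had 3.88, 5.03 and 1.00.

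The step to day 8 was also set against the next one, to day 14. The difference of the steps is the change from day 4 to day 8 minus the change from day 8 to day 14. It was above 0 for 453 genes (5.49%) and below 0 for 551 (6.68%), and both steps share the day 8 arrays. By probe set these were 588 and 797, and the balance turned to 768 and 617 after quantile normalization and to 768 and 658 after median centring. Tnnc1 had medians of 175, 751 and 369 at days 4, 8 and 14, and a difference of steps of 2.84 ± 0.31 (adjusted p = 0.00027). Hba-x had 207, 1602 and 805 (3.54 ± 0.87, adjusted p = 0.019), and Cldn6 had 379, 1988 and 1081 (3.01 ± 0.58, adjusted p = 0.0057). These 3 genes were highest at day 8.

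Rbp4 had medians of 195, 6769 and 8718 at days 4, 8 and 14 (3.99 ± 0.58, adjusted p = 0.0014), so most of its increase fell between days 4 and 8. Secreted protein genes had larger steps to day 8 in 11 of 34 cases and smaller ones in 4. Serpina1b, an antitrypsin, was among the 4, with 317, 380 and 1150 (-1.40 ± 0.22, adjusted p = 0.0018). Cdc25c had 1962, 963 and 1960 (-1.90 ± 0.22, adjusted p = 0.00027) on its brighter probe set and Lox 420, 141 and 636 (-3.61 ± 0.72, adjusted p = 0.0072), so that these probe sets were lowest at day 8. Knop1 had 2501, 653 and 1251 (-3.01 ± 0.56, adjusted p = 0.005).

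The defining markers of each cell type were also summed by array. Of 12 measured visceral endoderm markers 9 rose and 0 fell, and their summed signal was 18866 to 33963 at day 8 and 4727 to 10317 at day 4. Of 42 neural progenitor and neuronal genes 4 rose and 4 fell (9.52% each), with a median log2 change of -0.01, and of the 6 defining neural markers 0 rose and 1 fell. Ncam1, an adhesion molecule of neurons, and Stmn1, a regulator of microtubules, were higher at day 8 by 0.54 ± 0.12 and 0.27 ± 0.08 (adjusted p = 0.013 and 0.031), and their other probe sets did not pass. Ncam1 did not pass without day 8 replicates 2, 4 and 6 (0.38, adjusted p = 0.087), and Stmn1 did not in that fit (adjusted p = 0.23), in the ratio fit (0.16, adjusted p = 0.29) or without any 1 of 8 arrays (adjusted p up to 0.065). Sox3, a factor of neural progenitors, had 422, 546 and 655 at day 8, against 690, 695 and 847 at day 4 (-0.46 ± 0.10, adjusted p = 0.012), while its 3 other probe sets changed by -0.18, 0.01 and -0.05 and did not pass. Tubb3, a tubulin of neurons, fell by 0.57 ± 0.15 (adjusted p = 0.023), a call lost without day 8 replicate 4 or 6 (-0.64 to -0.50, adjusted p up to 0.054) or without replicates 2, 4 and 6 together (-0.31, adjusted p = 0.23). In the ratio fit neither Sox3 nor Tubb3 passed (adjusted p = 0.14 each). HOX genes, which pattern the trunk, had 0 of 24 higher and 2 lower (8.33%, near the 7.68% of all genes).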

How the data were processed

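Total RNA was amplified in 2 rounds and hybridised to Affymetrix MgU74Av2 arrays, and the deposited values are signal intensities on a linear scale that the authors made with dChip normalization and probe-level modeling. The dChip version and background method are not given in the sources used here. Of 12488 probe sets, 66 controls were left out. A gene was named from a probe set with 1 symbol (10833 probe sets; 396 had several and 1193 no annotation), by the brightest one over the 31 arrays. Of 387128 values, 104 were exactly 0. Values under the 5th percentile (59.6) were raised to it and log2 transformed.

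The 6 day 8 and 7 day 4 arrays went into a linear model with 1 mean per day (limma 3.58.1 under R 4.3.3, moderated with a trend in the variance, two-sided), and p-values were adjusted by Benjamini-Hochberg over 12422 probe sets at 0.05. The comparison of steps also used the 6 day 14 arrays. On simulated data 43 of 67 probe sets with a log2 change of 0.5, 64 of 67 with 1 and 65 of 66 with 2 were found, with 9 false calls. The simulated arrays varied independently, without the subsets of arrays that stood apart here, so these rates do not carry over to the real arrays. The labels do not say whether replicate numbers pair the arrays, and the model took the arrays as unpaired.

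Genes are named by rule: the 15 largest changes each way among called genes whose arrays do not overlap, any measured member of the visceral and parietal endoderm, endoderm factor, heart, smooth and skeletal muscle, pluripotency and primitive streak lists, and up to 6 called members of each other list. The comparison, the members and the lists were chosen with earlier results of these data known, and motifs after the values were seen. No list was tested as a set, and its counts are to be read against the share over all genes. The alternatives were floors at the 1st and 25th percentiles, quantile normalization, median centring, the dimmest 40% of probe sets left out, array weights, all 31 arrays in 1 fit, a variance without trend, the replicate number as a block, and each array left out in turn. Promoters are from the RefSeq table of GRCm38.p6, which held windows for 27025 genes.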

Additional observations from a re-analysis of the deposited data

Results flagged for a closer look

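In 256 groups of 6 or 7 arrays (128 genes on each day), 16 had 1 array that lay apart from the others by Dixon's criterion, and chance alone gives about 1 in 20. At day 8, Foxa2 was highest in replicate 6 at 1372, against 1063 to 1158 in the other day 8 arrays, and Nr2f2 was highest in replicate 2 at 359, against 174 to 224. Mef2c was highest in day 8 replicate 4 at 1020, against 826 to 878, and Mb lowest in the same array at 65.2, against 75.3 to 81.3. Nkx2-5 and Nppa were both lowest in day 8 replicate 3, at 341 against 444 to 500 and at 1028 against 1278 to 1381.

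At day 4, replicate 2 was highest for Col3a1 (568, against 333 to 410), Ncam1 (523, against 363 to 423), Postn (324, against 108 to 157) and Tagln (2643, against 1316 to 1601). Lefty1 was highest in day 4 replicate 3 at 7635, against 4312 to 5443, Kdr in replicate 1 at 970, against 777 to 842, and Isl1 in replicate 5 at 136, against 98.5 to 113. F2 was highest in day 4 replicate 7 at 115, against 42.1 to 76.3, Foxa2 in replicate 6 at 1032, against 778 to 856, and Cnn1 was lowest in replicate 4 at 1363, against 1610 to 1820.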

How the results depend on the processing

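The counts of 887 higher and 919 lower probe sets were within 1.5 times under both floors, quantile normalization, median centring, without dim probe sets and without the variance trend. With all 31 arrays in 1 fit they were 1479 and 1560, and with array weights 2383 and 2413, where 239 were at least 2-fold lower, against 59. The step to day 8 exceeded that to day 14 for 588 probe sets and was below it for 797, and these were 937 and 1349 with all arrays and 2334 and 2927 with weights. The cause was not tested.

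The replicate number as a block gave 1152 higher and 1158 lower probe sets, 99 of them at least 2-fold lower. That fit takes only numbers present on both days, so it leaves out day 4 replicate 7. Leaving out this array without a block gave 1151 higher and 1105 lower, with 100 at least 2-fold lower. The labels do not say whether the numbers pair the arrays. Deviations of same-numbered arrays correlated at -0.122 to 0.432, 4 of 6 above 0.1, and 3 of 6 arrays correlated best with their own number. These values do not settle whether some arrays are paired.

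Leaving out 1 array gave 600 to 1185 higher, 580 to 1509 lower, 142 to 209 at least 2-fold higher and 34 to 137 at least 2-fold lower, and for the steps 246 to 990 above and 291 to 1637 below. The count of lower probe sets was 1509 without day 4 replicate 6, 608 without day 4 replicate 2 and 580 without day 8 replicate 4. The count at least 2-fold lower was 35, 34 and 38 without day 4 replicates 2, 3 and 4, and 137 and 100 without replicates 6 and 7. For the steps, day 4 replicate 6 (990 above and 1637 below) and day 8 replicates 1 (278 and 292), 3 (246 and 291), 5 (307 and 345) and 6 (464 below) moved a count by over 1.5 times. Of 106 called genes described, 86 kept the call without any single array. Other settings (floors, normalization, fit, block) ended the call of 23, of which 18 were lost with the floor at the 25th percentile, and 26 dim genes have no value in the fit without dim probe sets.

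These alternatives were chosen after seeing the data. Without day 4 replicates 6 and 7, 1718 probe sets were higher and 2004 lower, 238 at least 2-fold lower, and the steps gave 1494 and 2175. Without day 4 replicates 1 to 5 these counts were 39, 46, 4, 103 and 116, with 19 at least 2-fold higher. Without day 8 replicates 2, 4 and 6, 336 were higher, 226 lower and 103 at least 2-fold higher, with 1259 steps below. Without day 8 replicates 1, 3 and 5, 598 were lower, and the steps gave 193 and 83. With the Gapdh ratio as a covariate there were 340 higher, 256 lower and 11 at least 2-fold lower, and the steps gave 141 and 152. Tpi1 changed sign without day 4 replicates 1 to 5 (-0.071), and Mef2c, averaged over its probe sets, had a change of 0.34 (adjusted p = 0.044) against -0.01 for its brightest one. Dim probe sets limit the rest: signals under the floor have no order.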
